A study of Pinus pinaster with 24 samples.

Results

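A group of 200 abundant transcripts with nearly the same level in 4 tissues of the maritime pine root tip was examined, out of 47118 transcripts in the deposited table. For each transcript, log2(value + 1) was averaged over the 3 water libraries of each tissue. Transcripts whose highest and lowest tissue means differed by less than 0.5 were kept, and the 200 with the highest average of the 4 means were taken. The range limit was met by 11166 transcripts (23.7%), and the last of the 200 members stood at rank 817 of the whole table by water average. The other 617 transcripts down to that rank failed the range limit, and they serve here as a comparison group of the same level. The members were thus chosen on the water libraries, so their evenness and level in those libraries are a description and were not tested.

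Transcripts that many cell types hold at like levels are often called housekeeping transcripts, and they commonly encode the machinery of translation, energy metabolism, protein turnover and the cytoskeleton. Plant expression studies use some of them as internal references, which presumes that they hold steady across tissues and treatments. The root tip joins very different cells. The cap shields the tip and sheds its outer cells, and the meristem divides. The developing vascular region forms conducting tissue, and the cortex expands and stores. The deposited table pairs 0 of its identifiers with a gene name, so no function is given to any member here and no sequence is shown.

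The libraries came from seedlings of Pinus pinaster, 1 month old, of the Segura-Alcaraz provenance. Control and treated seedlings alike had received a nutrient solution with no nitrogen source and 3 days of acclimation, and then 80 mL of water or of 3 mM NH4Cl, with roots taken after 24 h. Laser microdissection gave root cap, meristem, developing vascular tissue (labelled Developing_Root_Vascular) and developing cortex, regions that the protocol itself calls approximate. The vascular region is called vessels here for short. Each tissue and treatment has 3 libraries, from experiments numbered 1, 3 and 4, which makes 8 groups and 24 libraries. How many seedlings a library pools was not found in the labels. Every p-value therefore reflects how far libraries differ from one another, and that can be technical as well as biological.

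Depth was 67135340 to 88268689 reads per library, recovered from the table as described under the processing. Markers could not be checked without gene names, so each library was instead correlated across 46960 transcripts with the mean water profile of each tissue, leaving the library itself out. By this measure 21 of 24 libraries were closest to their own tissue and 3 were closest to another. The meristem ammonium library of experiment 3 was closer to cortex (r = 0.947) than to meristem (0.854). That of experiment 4 was closer to root cap (0.898 against 0.882), and the cortex ammonium library of experiment 1 to root cap (0.942 against 0.928). The main counts of calls, of even members and of groups apart are given below without these 3 libraries as well, and values of single members and of libraries include them. Without them the meristem has 1 ammonium library, which the fits take to vary like the other groups.

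Members held 5.10% of the reads in the cortex ammonium library of experiment 3 and 12.5% in the meristem ammonium library of experiment 1, the lowest and highest shares of the 24 libraries. In bulk tissue, fewer cells of a kind and less RNA per cell cannot be told apart, and a share of reads says nothing of the amount per cell. Deposited values of single members ran from 53.6 to 10557 and the lowest read count of a member in any library was 3262. At that count the counting error is 1.75% of the value and amplified reads are not independent molecules, so this covers counting error only. All 200 members passed the filter on low values (3 libraries or more at 1 or higher). The values are not corrected for transcript length, so the ranking by level orders transcripts by reads and not by molecules.

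The 5 most abundant members by water average were pp_235812, pp_109023, pp_145646, pp_234839 and pp_236318. In the water libraries of experiments 1, 3 and 4, pp_235812 had values of 4018, 4346 and 4349.6 in root cap, 5124, 3731 and 3331 in meristem, 5169.6, 3295 and 3975 in vessels and 5151, 4427 and 4579.6 in cortex. With ammonium its values were 5872, 3711 and 3617 in root cap, 6200.04, 3777 and 2895 in meristem, 6136, 3808 and 4410.2 in vessels and 10557, 4282 and 4704 in cortex. The cortex ammonium library of experiment 1 stood far above the other 23 for this transcript, and within each tissue the treatments overlapped.

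The second, pp_109023, had water values of 4352, 2945 and 3119 in root cap, 4836, 3338 and 3432 in meristem, 4379.97, 3502 and 3187 in vessels and 3112, 3110.3 and 4495 in cortex. Its ammonium values were 2632, 2146 and 2190.5 in root cap, 5788, 2486 and 2014 in meristem, 4728, 3764 and 5769.7 in vessels and 6059, 1791 and 3698 in cortex. All 3 root cap ammonium libraries lay below all 3 root cap water libraries, while in the other 3 tissues the treatments overlapped. Its tissue means spanned 0.16 on the log2 scale with water and 1.02 with ammonium.

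In ammonium libraries pp_234839 had values of 2026, 1626 and 1473 in root cap, 1783, 1508 and 1291 in meristem, 1813, 1445 and 1404 in vessels and 3241, 2231 and 2057 in cortex. Its water values were 1781, 1665 and 1622 in root cap, 1730.4, 1399.8 and 1364 in meristem, 1622, 1198 and 1603 in vessels and 1749, 1754 and 1506 in cortex. The ammonium means of its 4 tissues spanned 0.70, against 0.21 with water.

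At the lower end of the ranking, pp_108638 and pp_158747 were the last members, with water averages of 7.30 and 7.29 on the log2 scale, and pp_155142 and pp_223503 were the next below, both at 7.29. At the range limit, pp_155517 and pp_195157 lay just inside with water ranges of 0.4997 and 0.4952. Just outside lay pp_108642 and pp_116907, at 0.5038 and 0.5041.

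Evenness of the mean did not carry over to each experiment. Within a single water experiment, the 4 tissues of a member stayed within 0.5 on the log2 scale for 73 of 200 members in experiment 1, 107 in experiment 3 and 124 in experiment 4, and 31 members met the limit in all 3. In experiment 1, 22 members spanned at least 1. Since the rule averaged over these same libraries, these counts describe the selection only.

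In the ammonium libraries, which the rule did not use, the ranges of members were wider. The highest and lowest of the 4 ammonium tissue means were within 0.5 for 76 of 200 members (38.0%), against 29.9% of the 46960 transcripts tested and 118 of the 617 uneven transcripts of the same level (19.1%). The median range of members was 0.56 with ammonium, against 0.37 with water, and 157 members had the wider range with ammonium; the rule capped the water range, so this is no test of ammonium. The order of tissues also differed: with water the meristem was highest for 103 members, with ammonium the vessels were highest for 112 and the root cap was lowest for 120. Without the 3 libraries closest to another tissue, the meristem was highest with ammonium too (129 members, vessels 17), and root cap and cortex were lowest for 76 and 73. The count of 76 fell to 52 without those 3 libraries (15.4% of all transcripts), with a median range of 0.89, to 49 when the third experiment's cortex ammonium library was left out, and to 46 with the whole experiment left out.

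**Figure D1:**
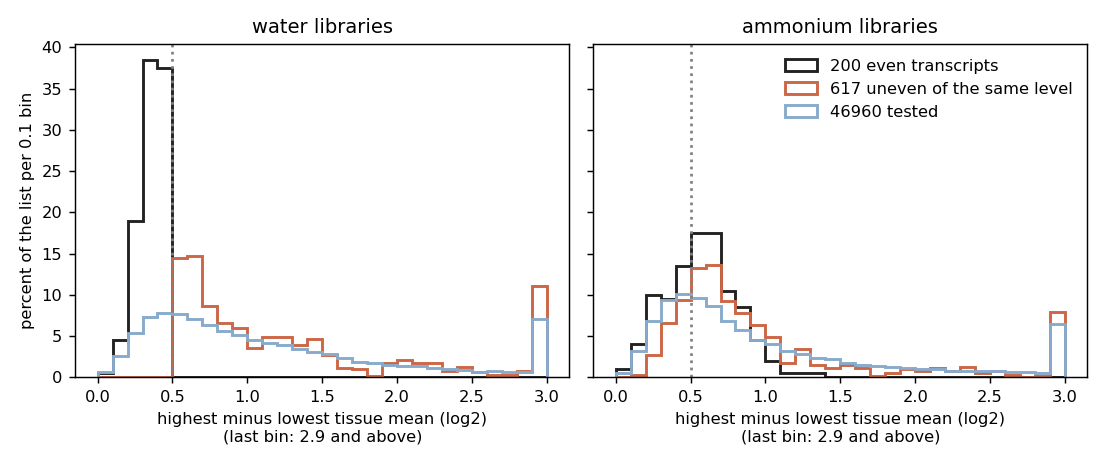
Histograms of the range of tissue means (highest minus lowest of 4 means of log2(value + 1), x axis) as a percent of each list per bin of 0.1 (y axis), in water and ammonium libraries, for the 200 members, the 617 uneven transcripts of the same level and all 46960 tested; the dotted line marks 0.5 and the last bin holds all wider ranges. The members end at 0.5 with water by construction, while with ammonium 76 of them lie left of the line and their median is 0.56.

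A test of tissue differences in the 12 ammonium libraries alone (limma F test, Benjamini-Hochberg adjusted over all 46960 transcripts) called 0 of 200 members at an adjusted p under 0.05, against 14.8% of all transcripts tested and 46 of the 617 uneven ones (7.46%). At an unadjusted p under 0.05 there were 3 members, against 27.9% of all. These 3 were pp_96390, pp_71424 and pp_60246, named after their values were seen. The quasi-likelihood test of edgeR, run on the recovered reads, called 0 members (13.1% of all transcripts). It had 3 members at an unadjusted p under 0.05, and that share of all transcripts was not computed. DESeq2 called 17 members against 26.7% of all, and the same limma test in a model of all 24 libraries called 12 against 28.8%, with 5 members called by both. Without the 3 libraries closest to another tissue, limma and edgeR still called 0 members (16.4% and 17% of all; 19 members unadjusted with limma). DESeq2 then called 27 (38.9% of all) and the model of the 21 other libraries 55 (44.5%).

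A count of 0 does not show that these members were even with ammonium. The 95% interval of a difference between 2 tissues had a median half-width of 0.81 on the log2 scale. For 46 of 200 members all 6 intervals lay inside -1 to 1, and the share of all transcripts was not computed. For the other members a difference of 1 or more between some pair of tissues was within the interval.

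The largest ammonium range, 1.38, belonged to pp_96390. It had water values of 1259, 622 and 913 in root cap, 709, 1019 and 964 in meristem, 1173, 1120.1 and 1098 in vessels and 617, 986 and 1243 in cortex. With ammonium it had 582, 790.4 and 425 in root cap, 884, 843 and 401 in meristem, 2033, 968 and 1754 in vessels and 1193, 893 and 1027 in cortex. The vessel libraries of experiments 1 and 4 were the highest of the 24 and the third vessel library fell among the other tissues (limma F test adjusted p = 0.102).

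Transcripts pp_71424 and pp_118838 followed with ammonium ranges of 1.27 and 1.17, and both had their highest ammonium mean in vessels. For pp_71424 the ammonium values were 677, 1301 and 567 in root cap, 808, 1219.7 and 486 in meristem, 2329.8, 1325 and 2178 in vessels and 1158, 1292 and 1377 in cortex. The low values sat in experiments 1 and 4 of root cap and in experiments 1 and 4 of meristem, and experiment 3 lay between 1219.7 and 1325 in the 4 tissues. The limma F test gave pp_71424 an adjusted p of 0.128.

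The smallest ammonium ranges belonged to pp_173119 (0.08), pp_158747 (0.10) and pp_173120 (0.12). Small ranges of means had different bases. In pp_173119 the libraries of a group still differed, as in the meristem ammonium libraries (696, 501 and 388) and the vessel ammonium libraries (502, 449.9 and 708), and its root mean square SD over the 8 groups was 0.31 on the log2 scale. In pp_158747 the libraries lay close as well, with an SD of 0.15.

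Ammonium was next compared with water in each tissue. The water libraries of these contrasts were used to choose the members and the ammonium libraries were not. In a limma model of 8 groups over 24 libraries, 0 of 200 members passed an adjusted p of 0.05 in root cap, meristem, vessels or cortex, against 0.00639%, 0%, 0.00213% and 0.268% of all transcripts. At an unadjusted p under 0.05 there were 0, 1, 3 and 18 members, against 3.41%, 12%, 3.21% and 10.7% of all. The edgeR test called 0 members in each tissue, beside 0% of all transcripts. DESeq2 called 0, 0, 0 and 1, beside 0.421%, 1.63%, 0.276% and 2.20% of all. At an unadjusted p under 0.05 edgeR had 0, 0, 2 and 17 members and DESeq2 1, 3, 6 and 23. The unadjusted shares of all transcripts were not computed for edgeR or DESeq2, so these unadjusted counts have no background to be read against. The DESeq2 call in cortex was pp_128224. Without the 3 libraries closest to another tissue, limma and edgeR called 0 members in each tissue and DESeq2 called 0, 0, 0 and 3 (3.32% of all in cortex).

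The 3 ammonium libraries of 6 members lay above the 3 water libraries in 1 tissue and below them in another, against 0.856% of all transcripts.

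Averaged over tissues on the 6 set means, a set being the 4 tissues of 1 treatment and experiment, limma called 0 members (1 unadjusted, pp_203553), beside 0% of all transcripts (8.46% unadjusted). The test of whether the ammonium difference depends on the tissue called 0 (1 unadjusted, pp_215570), beside 0% of all (3.78% unadjusted). The half-width of the 95% interval of an ammonium difference had a median of 0.63 over members, and this median did not depend on the tissue, since limma pooled the variance over groups of equal size. The interval lay inside -1 to 1 for 114 members in root cap, 123 in meristem, 125 in vessels and 149 in cortex, against 60.5%, 51.9%, 63.6% and 56.6% of all transcripts. Leaving out the 3 libraries gave 138 in root cap, 153 in vessels and 110 in cortex, against 65.3%, 68.8% and 52.1% of all transcripts. Root cap and vessels lost no library by this, and their median half-width fell to 0.52 through the pooled variance. With 1 ammonium library left, the meristem is given no such count. With all libraries, no member had a difference of 1 or more in any of the 4 tissues.

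In the root cap the members leaned lower with ammonium. The median difference was -0.20 on the log2 scale, against -0.01 over all transcripts tested, with 145 members lower and 55 higher. For 58 members (29.0%) all 3 ammonium libraries lay below all 3 water libraries, against 6.65% of all transcripts tested and 102 of the 617 uneven ones (16.5%). For 2 members, pp_128224 and pp_86461, the ammonium libraries lay above, against 6.03% of all. The members were taken for high water values, and the part of that choice in these counts was not tested.

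Of the 5 most abundant members, 2 (pp_109023 and pp_236318) had root cap groups apart downward. For the others, pp_235812, pp_145646 and pp_234839, the differences were 0.02, 0.10 and 0.0043, all above 0. In pp_236318 the root cap values were 1786, 1209.8 and 1535 with water and 1058, 1069 and 1051 with ammonium, a difference of -0.49 (SE 0.38, limma adjusted p = 1.00). In pp_109023 the difference was -0.56 (SE 0.38). In pp_145646 the root cap treatments overlapped, at 2655, 2445 and 2829 with water and 3511, 2532 and 2535 with ammonium.

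The largest negative differences in root cap were those of pp_118838 and pp_71424, at -0.79 (SE 0.43) and -0.77 (SE 0.41), and for both the groups overlapped. For pp_118838 the water values were 224, 129.98 and 220.2 and the ammonium values 90.2, 194 and 69.9. The largest positive differences were small: pp_128224 had 159, 169 and 156 with water and 182, 184 and 222 with ammonium (0.27, SE 0.16), with the groups apart. In pp_138501 the difference was 0.25 (SE 0.20), with the groups overlapping.

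In the meristem the median difference was -0.13 (0.01 over all transcripts), with 133 members lower and 67 higher. This value rested on libraries that stood close to other tissues: without the 2 such meristem libraries it was 0.29. The groups were apart for 6 members upward and 2 downward (3.00% and 1.00%), against 4.38% and 6.01% of all. Median-of-ratios scaling gave 6 and 0 (4.31% and 5.92% of all). With values divided by library sum they were 1 and 7 (2.59% and 9.03% of all), the opposite balance. With the experiment 1 library as the lone ammonium library, it lay above the 3 water libraries for 116 members and below them for 12, against 21.4% and 26.2% of all. The largest positive differences belonged to pp_246221 (0.43, SE 0.29) and pp_64483 (0.37, SE 0.21), and the largest negative ones to pp_89912 (-0.86, SE 0.54) and pp_118838 (-0.82, SE 0.43).

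Values of pp_89912 in the meristem were 525, 446 and 498 with water and 452, 198 and 216 with ammonium. The ammonium library of experiment 1, which correlated best with its own tissue, fell among the controls, and the low values were those of experiments 3 and 4. For pp_64483 the ammonium values were 169, 225 and 296 against 175, 167 and 179, so the high values were those same libraries. Without the 3 libraries closest to another tissue its difference was -0.041.

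In the vessels the median difference was 0.14 (-0.01 over all transcripts), with 157 members higher and 43 lower. The groups were apart for 10 members upward and 6 downward (5.00% and 3.00%), against 4.44% and 4.25% of all. With values divided by library sum these counts were 6 and 18 (3.16% and 7.41% of all), so the balance turned under that scaling. Median-of-ratios scaling gave 14 and 6 (4.82% and 3.82% of all), which kept it. On the deposited values pp_197437 (0.63, SE 0.49) and pp_246221 (0.61, SE 0.29) had the largest positive vessel differences. Vessel values of pp_246221 were 298, 254 and 193 with water and 409, 332 and 382 with ammonium, with the groups apart (unadjusted p = 0.0483, limma adjusted p = 1).

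The largest negative vessel differences belonged to pp_198024 (-0.42, SE 0.21) and pp_214903 (-0.41, SE 0.53). Values of pp_198024 were 327, 296 and 409.8 with water and 251, 270.3 and 243 with ammonium, which lay apart. Those of pp_214903 overlapped, at 346, 472 and 378 and 494, 317 and 168, and without the vessel ammonium library of experiment 4 its difference was 0.0030.

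In the cortex the median difference was -0.03 (-0.03 over all transcripts), with 93 members higher and 107 lower. Its sign rested on single libraries: leaving out the ammonium library of experiment 3 gave 0.32, and leaving out the water library of experiment 4 gave 0.10. It was -0.23 without the ammonium library that stood closest to root cap (experiment 1). Leaving out the ammonium library of experiment 4 gave -0.13, and leaving out the water libraries of experiments 1 and 3 gave -0.10 and -0.07. The groups were apart for 28 members upward (14.0%) and 5 downward (2.50%), against 6.37% and 9.24% of all transcripts. Without the ammonium library of experiment 1 they were 31 and 6 (9.87% and 13.5% of all). With values divided by their library sum they were 9 and 9 (4.14% and 12.6% of all). With median-of-ratios scaling they were 33 and 6 (6.74% and 8.54% of all). The lean upward in these counts was thus kept under median-of-ratios scaling and absent under library sums.

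Transcripts pp_88950 and pp_88949, neighbours by identifier, had the largest positive cortex differences at 0.78 (SE 0.37) and 0.76 (SE 0.37). Cortex values of pp_88950 were 99.9, 285 and 237 with water and 294, 417 and 281 with ammonium. The lowest ammonium value was below the highest water value, and the water library of experiment 1 was far below the other two.

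The largest negative cortex differences were those of pp_203553 and pp_198678. Values of pp_203553 were 145, 144 and 156 with water and 96.2, 80.4 and 101 with ammonium, a difference of -0.68 (SE 0.24, limma adjusted p = 0.263). For pp_198678 they were 143, 167 and 223 and 113, 94.0 and 141, a difference of -0.61 (SE 0.21, limma adjusted p = 0.249). In both transcripts the ammonium libraries lay below the water libraries without overlap.

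Neighbours of pp_198678 by identifier had like values: pp_198677 and pp_198679 had cortex differences of -0.60 and -0.60, and pp_198681 of -0.51, named after their values were seen. Another member, pp_215570, also named after its values were seen, had cortex values of 486, 512 and 467 with water and 309, 272 and 469.5 with ammonium. Its ammonium library of experiment 4 lay among the controls, and without that library limma called it (adjusted p = 0.0289), against 0.247 with it. Each of the 24 libraries was left out in turn, and the one behind this call was the one that ran against the difference.

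**Figure D2:**
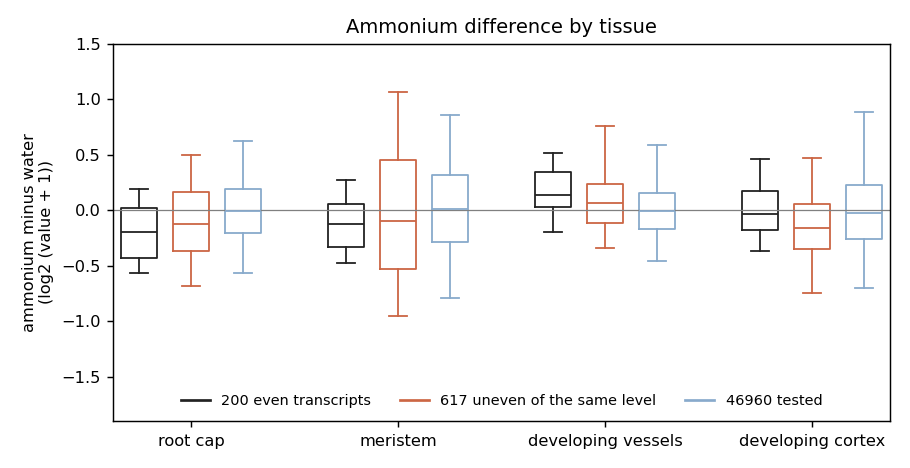
Ammonium minus water difference of group means of log2(value + 1) (y axis) by tissue, for the 200 members, the 617 uneven transcripts of the same level and all 46960 tested; boxes show quartiles and the median, and whiskers the 5th and 95th percentiles. Medians of members are -0.20 in root cap, -0.13 in meristem, 0.14 in vessels and -0.03 in cortex.

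Members varied together from library to library. After each member was centred on its own mean over 24 libraries, a single component held 65.5% of the variance of the 200 members and the next 10.4%. Without the 3 libraries closest to another tissue these shares were 67.7% and 8.22%. The median of all members in a library, relative to each member's water average, was 0.03, -0.17 and -0.04 on the log2 scale in the root cap water libraries of experiments 1, 3 and 4, and -0.28, -0.27 and -0.29 with ammonium. In meristem it was 0.33, 0.03 and -0.04 with water and 0.43, -0.19 and -0.37 with ammonium.

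The vessel medians were 0.06, -0.12 and -0.04 with water and 0.14, -0.09 and 0.31 with ammonium. Those of cortex were -0.11, -0.08 and 0.24 and 0.45, -0.67 and 0.20. The cortex ammonium libraries of experiments 1 and 3 stood at opposite ends of the 24 libraries, with depths of 74345836 and 72751959 reads and sums of deposited values of 1210370 and 1196260. The root cap ammonium libraries lay close together and below the 3 root cap controls.

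**Figure D3:**
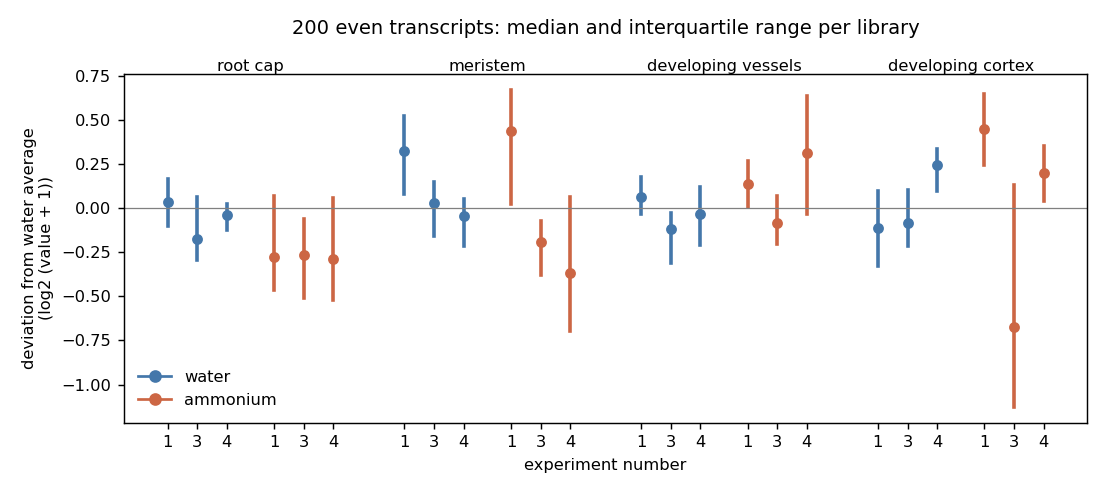
Deviation of the 200 members from their own water average (log2(value + 1), y axis) in each library (x axis, experiments 1, 3 and 4 of each group); points are medians over members and bars the interquartile range. The cortex ammonium libraries of experiments 1 and 3 have medians of 0.45 and -0.67, while the 3 root cap ammonium libraries have medians of -0.28, -0.27 and -0.29.

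Some members followed this shared variation more than others. Of 200 members, 72 had a Pearson r above 0.9 with the median of the members over the 24 libraries, 95 had an r of 0 to 0.9 and 33 a negative r. The bands held 76, 78 and 46 with the 3 libraries left out. These bands were drawn after the values were seen, from libraries that share tissue, depth and scaling, and they are a description with no test. Among the 72, pairs had a median r of 0.92. They were the more abundant members (median water average 8.53, against 7.90 and 7.66 in the other bands).

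These 72 members also had the wider ammonium range, with a median of 0.73 against 0.50 and 0.47, and 9 of them stayed within 0.5. In the cortex ammonium libraries of experiments 1, 3 and 4 their median deviation was 0.56, -1.14 and 0.10, whereas that of the 33 members with a negative r was 0.24, 0.36 and 0.35. All 72 had a lower root cap mean with ammonium than with water (median difference -0.46). In 53 of them the root cap groups were apart downward, against 6.65% of all transcripts tested. The members' median, on which the band was chosen, was itself -0.28, -0.27 and -0.29 in the root cap ammonium libraries. The part of that choice in these counts was not tested. Of the 33, 27 had a higher root cap mean (median 0.10).

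Transcript pp_214901 followed the members' median most closely (r = 0.98), and pp_213225 ran most against it (r = -0.78); both were named after their values were seen. Ammonium values of pp_214901 were 1001, 1043 and 1009 in root cap, 2133, 1138 and 854 in meristem, 1478, 1261 and 2024 in vessels and 2116, 756 and 1671 in cortex. Those of pp_213225 were 231, 196 and 240.3 in root cap, 170.4, 189 and 250.5 in meristem, 179, 179 and 168 in vessels and 142, 214 and 185 in cortex. The cortex ammonium library of experiment 3 was the lowest of the 24 for pp_214901 and among the highest of pp_213225.

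**Figure D4:**
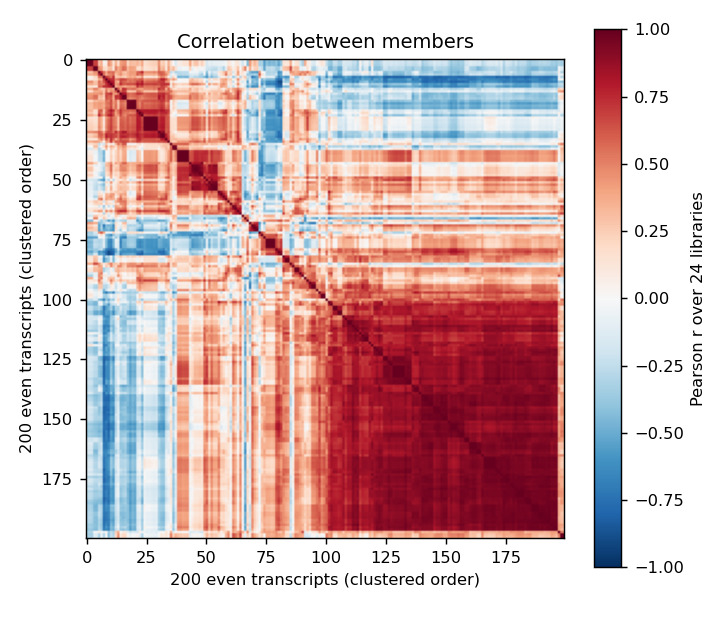
Pearson correlation of log2(value + 1) over 24 libraries between each pair of the 200 members, in clustered order on both axes. Red marks positive and blue negative correlation; a large red square holds members that vary together, and of 19900 pairs 10.8% have an r above 0.9 and 28.4% an r below 0.

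Some members varied little over the 24 libraries. The coefficient of variation over the 24 libraries had a median of 26.0% over members (9.99% to 45.0%), against 37.3% over the uneven transcripts of the same level and 46.1% over all tested. The members' median was 23.4% without the 3 libraries. The coefficient over the 24 libraries was under 20% for 69 members (34.5%), against 3.89% of the uneven transcripts and 7.25% of all. A value under 20% did not exclude a wide range within a set. In pp_33185, named after its values were seen, it was 19.7%, and the tissues spanned 1.38 in the ammonium set of experiment 3. The 12 water libraries enter these coefficients, and the rule held their tissue means within 0.5 for members and not for the uneven transcripts. Part of the gap between the lists is therefore set by the selection. No coefficient was computed on the ammonium libraries alone. The highest value of a member was 1.45 to 7.66 times its lowest, with a median of 2.82.

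Transcript pp_158747, the last member by level, had the lowest coefficient of variation. Its water values were 144, 138 and 158 in root cap, 181, 144 and 153 in meristem, 162, 141 and 178 in vessels and 163, 154 and 161 in cortex. Its ammonium values were 166, 152 and 185 in root cap, 189, 156 and 175 in meristem, 171, 162 and 156 in vessels and 161, 134 and 194 in cortex. In each tissue the treatments overlapped, and its ammonium differences were 0.19, 0.12, 0.03 and 0.02 in root cap, meristem, vessels and cortex, with an interval half-width of 0.34.

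The smallest spread within groups (root mean square SD over 8 groups, 0.13 on the log2 scale for each) was found in pp_86461, pp_86460 and pp_195162. Values of pp_86461 were 191, 172 and 191 in root cap, 209, 191 and 178 in meristem, 234, 229 and 225 in vessels and 190.2, 181 and 201 in cortex with water. With ammonium they were 199, 195 and 198 in root cap, 208, 167 and 169 in meristem, 253, 190.3 and 196 in vessels and 192, 176 and 219 in cortex. The vessel water libraries were the highest group, and the root cap treatments lay apart by a difference of 0.09. Its neighbour pp_86460 had nearly the same values in each library.

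Little spread within groups is not the same as evenness. Transcript pp_195162 had meristem water values of 144, 143 and 139 and cortex ammonium values of 240.4, 259.6 and 251, and its tissue means spanned 0.48 with water and 0.55 with ammonium. Its r with the members' median was -0.21. The DESeq2 test and the limma test in the 24-library model called tissue differences with ammonium for it (adjusted p = 0.00659 and 0.0337), while the limma test on the ammonium libraries alone gave 0.268.

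Across the 6 sets, 9 members kept their 4 tissues within 0.5 in each set: pp_145084, pp_86461, pp_86460, pp_212901, pp_117942, pp_105232, pp_209121, pp_76327 and pp_158747. They were named after their values were seen, and their coefficients of variation were 9.99% to 15.5%. At the other end, 11 members met the limit in 0 sets and 77 in 1 set. In the ammonium sets alone, 12 members met it in all 3 and 122 in none. Set by set, 15.5%, 28.5% and 19.0% of members met it with ammonium in experiments 1, 3 and 4. The shares of all transcripts tested were 12.2%, 21.5% and 22.8%, so members were below them in experiment 4. Shares of all transcripts for counts over several sets were not computed.

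Of the 9, pp_145084 was the most abundant and had the smallest water range of all members (0.09). Its water values were 311, 349 and 347 in root cap, 365, 335 and 362 in meristem, 323, 347 and 378 in vessels and 334, 359.9 and 380.1 in cortex. Its ammonium values were 338, 327 and 426 in root cap, 331, 319 and 473 in meristem, 357, 342 and 368 in vessels and 327, 412 and 445 in cortex. Root cap, meristem and cortex each had their highest value in the ammonium library of experiment 4. The ammonium range of its tissue means was 0.14 and the limma F test gave an adjusted p of 0.963, with all 6 tissue intervals inside -1 to 1.

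The largest spread within groups was in pp_89912, pp_214903 and pp_105359, with root mean square SDs of 0.71, 0.69 and 0.68. For pp_105359 the cortex values were 867, 790.2 and 1298 with water and 1809, 271 and 906 with ammonium, so the ammonium libraries lay on both sides of the controls. In pp_214903 the meristem ammonium values were 619.5, 261 and 92.8, against 359, 404 and 362 with water. The median SD of members was widest among cortex libraries given ammonium (0.57), then among meristem libraries given ammonium (0.49). Each other group had 0.17 to 0.29. The same groups were the widest over all transcripts (0.39 in cortex and 0.45 in meristem) and over the uneven ones (0.63 and 0.69). They also hold the libraries that stood closest to another tissue.

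**Figure D5:**
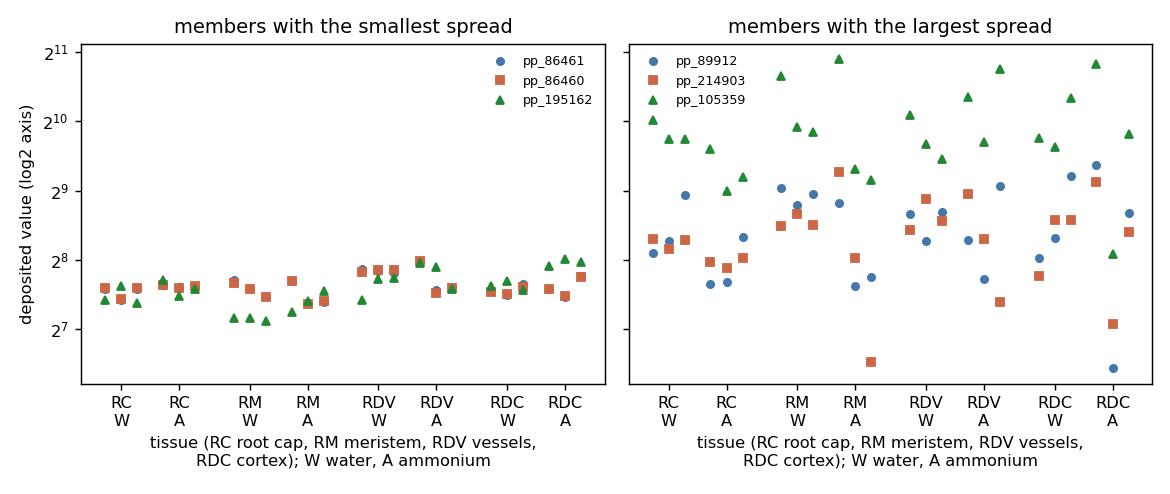
Deposited values (y axis, log2 axis) in each library of the 3 members with the smallest and the 3 with the largest spread within groups; groups are water (W) and ammonium (A) of root cap (RC), meristem (RM), vessels (RDV) and cortex (RDC), with experiments 1, 3 and 4 from left to right. Transcripts pp_86461 and pp_86460 nearly coincide, while the cortex ammonium libraries of pp_105359 run from 271 to 1809.

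By identifier, the 200 members formed 146 runs of consecutive numbers, 35 of them with more than 1 member and together holding 89 members. The longest run had 5 members, pp_194665 to pp_194669. Pairs of members with consecutive numbers had a median r of 0.99 over the 24 libraries (54 pairs), against 0.32 over the 19900 pairs of members. Members in a run may be copies or forms of 1 gene whose reads the counting could share or split, so the 200 transcripts are not counted as 200 independent genes.

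Evenness was judged on the deposited scaling, in which library sums differ. Under the same rule with values divided by the library sum, 86 of the 200 remained members, and with quantile normalization 82 did. With median-of-ratios scaling 178 remained. The division by library sum moved the median difference of all transcripts in cortex to -0.11, from -0.03, and under it the members' medians were -0.21, -0.23, 0.07 and -0.16 in root cap, meristem, vessels and cortex. Applied to the ammonium libraries, the rule chose 75 of the 200.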

How the data were processed

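RNA of 24 microdissected root tip libraries was measured. Per the labels' protocols, amplified cDNA (SMART-Seq, low input) was read in pairs of 150 bp. The submitters' processing notes name bcl2fastq and BWA; for the counting program, reference, scaling and filter, nothing is given in the sources used here. The deposited signal of a transcript is its reads over a scaled library size, which the numbers themselves show: library sums differ, and 100% of entries are whole multiples of what 1 read is worth (tolerance 0.01 reads). A floor of 3 reads equals a value of 0.0309 to 0.0493. The planned tests assumed CPM; with a signal, the same log-scale tests were used.

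Values were analysed as log2(value + 1), which understates differences of low transcripts, after a filter (3 libraries or more at 1 or higher) that kept 46960 of 47118. Tests were limma 3.58.1 fits (empirical Bayes with trend, Benjamini-Hochberg over all transcripts, threshold 0.05) in R 4.3.3. The tissue by ammonium test used the set as a block (consensus correlation 0.22, estimated on 1 in 10 transcripts). On recovered counts, edgeR 4.0.16 and DESeq2 1.42.0 were alternatives. Plots used matplotlib 3.10.9. The limma fits of the cortex contrast, of tissues in ammonium libraries and of tissue by ammonium without a block were first run on simulated data. The averaged fit, the blocked fits, the tissue test in the model of 24 libraries, edgeR and DESeq2 were not.

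Members, lists and tests were chosen with earlier results of these data known. Named transcripts are the 5 most abundant, extremes of ammonium range and spread (3 each), 2 greatest rises and falls per contrast (called or not), and those nearest the limits; others are said to be named after their values were seen. Planned name-based gene lists and marker checks could not be used.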

Additional observations from a re-analysis of the deposited data

Results flagged for a closer look

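In 6 members the 3 ammonium libraries lay above the 3 water libraries in 1 tissue and below them in another, 3.00% of the 200, against 0.856% of all transcripts tested. They form 2 runs or near runs of identifiers, so they are not 6 independent cases. Transcripts pp_169366 and pp_169364 were lower in root cap (-0.48 and -0.50 on the log2 scale) and higher in vessels (0.47 and 0.45). Root cap values of pp_169366 were 379, 396 and 415 with water and 318, 326 and 222 with ammonium, and its vessel values were 414, 401 and 348 and 504, 465 and 659.

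Transcripts pp_198024, pp_198025, pp_198026 and pp_198027 were lower in vessels (-0.42, -0.33, -0.34 and -0.32) and higher in cortex (0.24, 0.24, 0.22 and 0.21). Cortex values of pp_198024 were 321, 343 and 298 with water and 349.8, 403 and 385 with ammonium. The tissue by ammonium test of the difference gave 0 calls among members, with a limma adjusted p of 0.980 for pp_198024 and 0.980 for pp_169366.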

How the results depend on the processing

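Called members stayed at 0 in root cap, meristem and vessels, and in the averaged and tissue by ammonium tests, under every alternative run for them. In cortex 1 was called with DESeq2 (3 with the 3 libraries closest to another tissue also left out) and 0 to 1 with libraries left out. Tissue calls in ammonium libraries were 1 with quantile normalization (pp_198678), 12 in the model of 24 libraries, 17 with DESeq2 (55 and 27 with those 3 libraries also left out, chosen after seeing the data) and 0 to 1 with libraries left out (pp_71424 without experiment 3). Members within 0.5 with ammonium numbered 46 to 109 with libraries left out. Leaving out libraries moved the median ammonium difference between -0.26 and -0.13 in root cap, -0.36 and -0.01 in meristem, 0.09 and 0.26 in vessels, and -0.30 and 0.32 in cortex. In the meristem it was 0.29 without those 3 libraries; the averaged test then had no complete ammonium set. Of 200 members, 86 remained with values divided by library sum, 82 with quantile normalization, 75 when the rule used ammonium libraries, and 102 to 174 without 1 experiment. Of 528 alternatives for the 16 named ammonium differences, many left out a library of another tissue, which cannot change the difference itself. With these included, 526 kept sign and side of the threshold, so that count says little of how firm the signs are. The exceptions were pp_64483 in meristem (-0.041 without the 3 libraries) and pp_214903 in vessels (0.0030 without ammonium replicate 4, range -0.87 to 0.0030 with libraries left out). The cause was not tested.

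The replicate block changed 0 calls: with it, 0 members were called in each ammonium contrast, in the tissue test and in the averaged test, and without it 0 in the tissue by ammonium test. Correlations of deviations between same-numbered libraries exceeded 0.1 in 16 of 18 water and 15 of 18 ammonium tissue pairs, but in 4 of 12 pairs of water with ammonium. The titles number experiments without saying what such libraries shared. At 3 libraries a group, the interval of an ammonium difference had a median half-width of 0.63 on the log2 scale over members. That interval is not adjusted for the number of transcripts, so 0.63 is not the limit of what the adjusted tests could detect. Larger differences also went uncalled, such as -0.86 for pp_89912 in meristem (limma adjusted p = 0.505). The smallest detectable difference was not computed.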
